A study of Gallus gallus with 6 samples.

Results

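Chicken genes annotated to ion transport or ion channels were examined for methylation of lysine 4 on histone H3 (H3K4) in 3 cell populations of the germ line and its early origin. The genes were those whose annotation in the deposited tables held at least 1 of 5 terms, namely ion transport, ion channel activity, potassium ion transport, calcium ion transport or sodium ion transport. The rule uses no measured value, but the terms and the role groups below were chosen with earlier results of these data known. This gave 102 of the 6437 genes in the tables, as the closest transcription start to 156 of 10677 distinct regions. Of the 102 genes, 86 carried the term ion transport, 45 ion channel activity, 28 potassium, 13 calcium and 12 sodium ion transport. For 28 genes ion transport was the only one of the terms, and 10 genes had an identifier but no symbol in the tables.

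The embryonic stem cell (ESC) population was taken at stage X, from the blastoderm, and was kept in culture with leukaemia inhibitory factor, basic fibroblast growth factor and stem cell factor for 24 h before purification. Genital ridges of eggs incubated for 4.5 d by the protocol, and of 72 h (stage 27) by the label, gave the primordial germ cells (PGC). Testes of embryos at 18.5 d by the protocol, and 18 d by the label, gave the spermatogonial stem cells (SSC). No genotype, strain or treatment beyond culture is given for any population, and purification rested on culture or differential adhesion with no sort described. A single immunoprecipitated (IP) library and a single input library stood for each population, so 6 libraries were sequenced, from chromatin of an unstated number of embryos. The title of the study names dimethylated H3K4, but its antibody is labelled for the trimethylated form as well, and the text therefore speaks of H3K4 methylation.

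Ion channels let potassium, sodium, calcium or chloride ions cross a membrane down their gradients, and they open on a change of voltage, on binding of a ligand or on mechanical or thermal signals. Pumps spend ATP to build those gradients, the mitochondrial ATP synthase runs on a proton gradient to make ATP, and transporters couple the movement of one ion to that of another or of a solute. Methylation of H3K4 lies at active and poised promoters in its trimethylated form and spreads over promoters and enhancers in its dimethylated form. Many voltage and ligand gated channels are known for their roles in neurons and muscle, while proton and sodium pumps work in nearly every cell. The roles given for single genes are those known from mammals.

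With 1 library of each kind per population no test between populations was possible, and each statement compares libraries. The 6 libraries held from 19.15 to 26.03 megareads, and a listed region had a median of 11 to 23 IP reads and 4 to 6 input reads, by library and table. Enrichment is the ratio of IP to input reads per megaread (RPM) in a region. A ratio between populations is given as log2, with a 95% counting interval that covers counting error only, and the median standard error of a log2 ratio by counting was between 1.03 and 1.06. A region was called higher or lower at 2-fold or more, and marked where the authors flagged it as a peak in a population. Markers of the labelled cell types were rarely marked. Of 13 embryonic stem cell markers, 3 had a marked region in ESC (KLF5, LIN28B and MYCN), 2 in PGC (KLF5 and MYCN) and 3 in SSC (KLF2, KLF5 and MYCN). Of 10 primordial germ cell markers, 2 were marked in ESC (TDRD7 and TFAP2C), 0 in PGC and 2 in SSC (CXCR4 and TDRD7). Of 8 spermatogonial markers, 1 was marked in ESC (ITGB1) and 0 in PGC and in SSC. The marks of these lists therefore did not follow the labels. Of 12 markers of somatic gonad cells, 2 were marked in ESC, 3 in PGC and 8 in SSC, and of 10 fibroblast markers 1, 2 and 5. The blood and endothelial list had 1 of 10 marked in each population, and of 8 neuronal and 6 muscle markers 0 were marked in any. Markers without a marked region may lie outside the deposited regions, so the labelled identities could not be checked further, and the part of other cells in the results below was not tested.

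Regions of the ion transport and channel genes were marked mostly in PGC. Of the 102 genes, 18 had a region marked in ESC, 71 in PGC and 36 in SSC. These are 17.6%, 69.6% and 35.3% of the genes, where all listed genes had 46.5%, 40.8% and 41.8%. Of the 156 regions, 24 were marked in ESC alone, 92 in PGC alone, 39 in SSC alone and 1, at CDKN1B, in both ESC and SSC. Alone here means with no mark in another population for which the region is listed. Only 13 of the 24, 27 of the 92 and 12 of the 39 were listed in 2 tables and so had values in all 3 populations. In all, 84 of the 102 genes had no listed region marked in ESC. In ESC over PGC the marks in ESC and in PGC stood at 57.8% and 42.6% of all regions, so few regions were marked in both. Peaks shared between populations may therefore be missing from the listed regions. A gene without a listed ESC mark need not lack the mark in ESC. Whether fewer cells carried the mark or each cell carried less of it cannot be told apart in bulk chromatin.

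Channel genes made up most of the members and also most of the genes marked in PGC. Over all listed genes the shares marked in ESC, PGC and SSC were 46.5%, 40.8% and 41.8%. Among 22 potassium channel genes, 1, KCNK1, had a region marked in ESC, 16 in PGC and 8 in SSC. Among 15 ligand gated channel genes, which include GABA, glycine and glutamate receptor subunits, 1, GABRB2, was marked in ESC, 13 in PGC and 3 in SSC. Of the 5 calcium channel genes 0 were marked in ESC, 4 in PGC and 3 in SSC, and of the 3 sodium channel genes 0, 3 and 1. The 5 TRP and two-pore channel genes had 0 marked in ESC, 3 in PGC and 2 in SSC. Of the 5 genes grouped by symbol as chloride and anion channels, CLCN3 and CLCN5 had listed marks in ESC only, 2 were marked in PGC and 3 in SSC. A symbol of this group does not make a gene a channel, since CLCN6, for example, is an exchanger. The whole group is counted with the channels below. GJC1, a connexin that forms gap junctions, was marked in PGC. Its regions are listed in ESC over PGC only, so they have no value in SSC.

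Pumps were marked in ESC more often than channels in these counts, at a share near the 46.5% of all listed genes. Of 10 pump genes, with mitochondrial ATP synthase and vacuolar proton pump subunits counted among them, 5 had a region marked in ESC, 3 in PGC and 3 in SSC. All 5 ESC-marked pump genes, ATP1B3, ATP5C1, ATP5G3, ATP5H and ATP6V0B, carried that mark within 1 kb of the start. Of 17 transporter genes of the solute carrier families, 2 were marked in ESC, 13 in PGC and 7 in SSC. The 19 regulators and other genes were marked in ESC for 7, in PGC for 13 and in SSC for 6. Roles were set by symbol, so the last group also holds the 10 genes without a symbol. Several of these carry the term ion channel activity, and the channel counts above may therefore be incomplete. Some named genes of the group are best known for work other than ion transport. Examples are CDKN1B, an inhibitor of cyclin dependent kinases listed under potassium ion transport, and MELTF, an iron binding membrane protein.

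**Figure D1:**
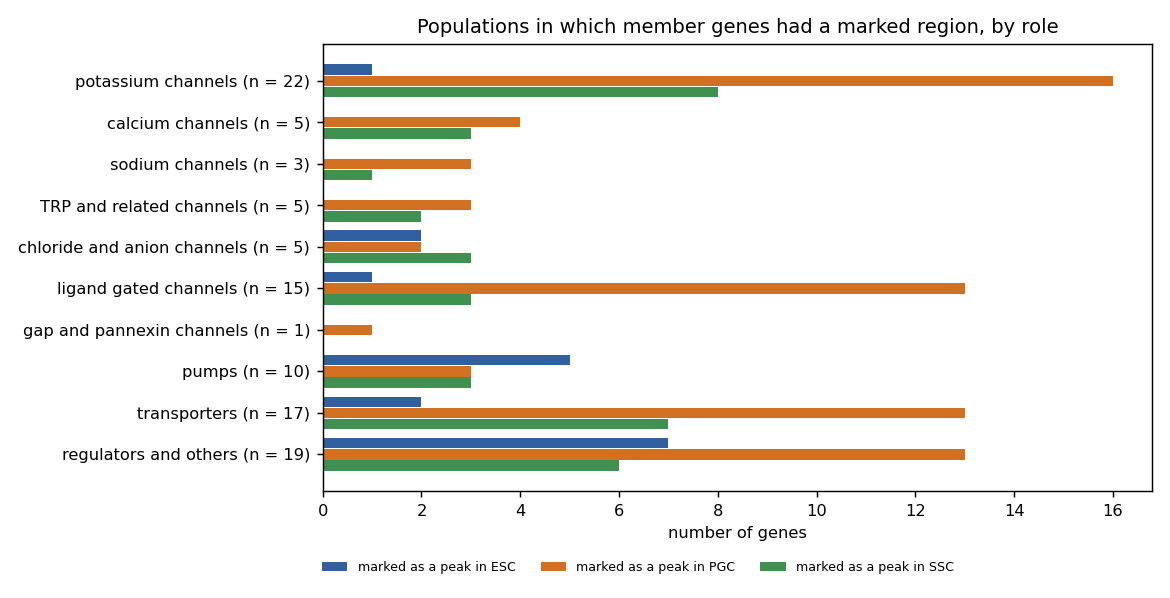
Number of ion transport and channel genes (horizontal axis) with at least 1 region marked as a peak in ESC, PGC or SSC, by role of the gene (vertical axis, n = genes in the role). Potassium channels had 1, 16 and 8 genes marked in ESC, PGC and SSC and ligand gated channels 1, 13 and 3, while pumps had 5, 3 and 3.

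Regions marked in ESC lay near a start in a larger share than those marked in PGC or SSC, at these genes and over all regions alike. Of the 24 regions marked in ESC alone, 15 lay within 1 kb of a start, against 2 of 92 in PGC and 3 of 39 in SSC. In ESC over PGC, 56.2% of member regions marked in ESC alone lay near a start, against 65.4% of all regions with that mark, and 0 of 53 marked in PGC alone, against 3.90% of all. In ESC over SSC the shares for ESC alone were 66.7% and 66.7%, and for SSC alone 11.5% and 16.4%. A region within 1 kb of the start was listed for 19 of the 102 genes (18.6%), where the share over all listed genes was 41.0%. In number of regions the genes were close to all genes, with 2 or more regions at 34.3% of them and at 38.5% of all genes. The ion transport and channel genes were long, with a median of 27.2 kb against 15.0 kb for the other listed genes. Calcium channel genes had a median length of 257.6 kb and ligand gated channel genes of 62.0 kb, while pump genes had 8.71 kb. When all listed genes were divided at 7.95 and 27.1 kb into 3 equal classes by length, the share of member regions marked in PGC alone in the ESC and PGC table was 66.7% in the shortest class (n = 15), 73.3% in the middle (n = 15) and 82.1% in the longest (n = 39). Over all regions these shares were 46.7%, 34.1% and 45.8%. In PGC over SSC the shares marked in PGC alone were 73.3%, 71.4% and 71.4%, against 47.0%, 44.5% and 49.6% of all regions. In ESC over SSC the shortest class went the other way. There 66.7% of 9 member regions were marked in ESC alone and 22.2% in SSC alone, with a median log2 ratio of 1.16 against 0.33 for all regions of that class. The 9 regions are not from 9 genes, since CDKN1B gave several, with log2 ratios of 0.76, 1.16 and 2.75. The median is the value of the CDKN1B region over the first intron. The regions of ATP6V0B and ATP5G3 in this class had 0 input reads in ESC. The middle and longest classes had medians of -0.53 (n = 10) and -0.90 (n = 29), against 0.44 and 0.14.

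**Figure D2:**
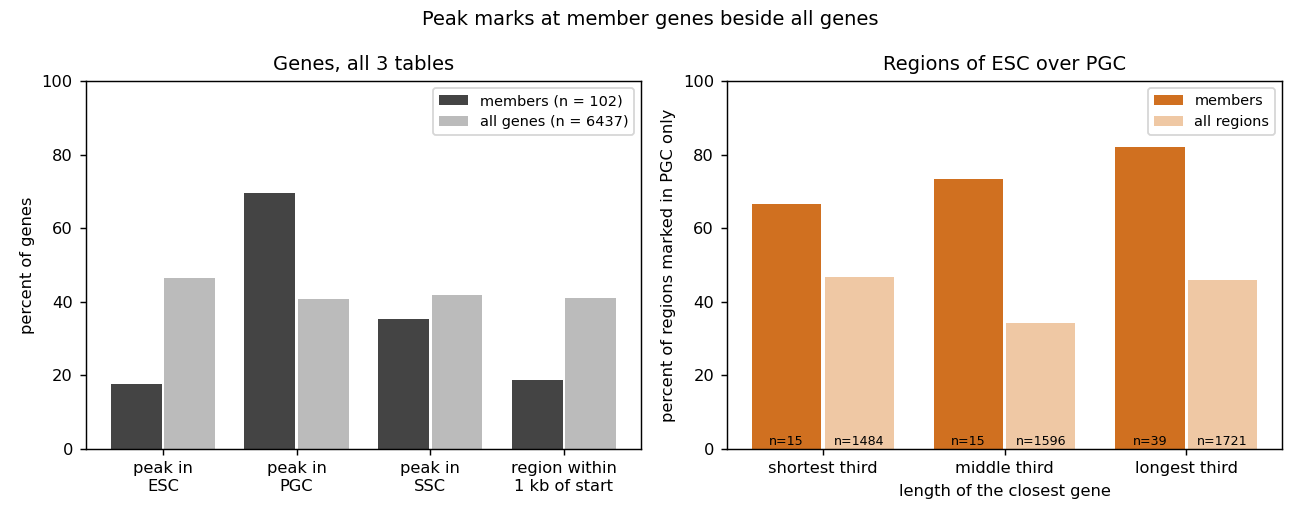
Left, percent of ion transport and channel genes (dark bars, n = 102) and of all listed genes (light bars, n = 6437) with a region marked as a peak in ESC, PGC or SSC, or with a region within 1 kb of the start. Right, percent of regions in the ESC and PGC table marked in PGC alone, by length of the closest gene, for member regions and all regions. PGC marks stood at 69.6% of the member genes and 40.8% of all genes.

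The table of ESC over PGC asked how the mark differed between the populations labelled as embryonic stem cells and primordial germ cells. It held 69 member regions of 55 genes, of 4801 regions and 3774 genes. ESC enrichment was at least 2-fold higher at 10 of the 69 (14.5%) and at least 2-fold lower at 34 (49.3%). Among all regions 48.4% were higher and 23.5% lower, so the order was turned round at these genes. The median log2 ratio was -0.99 for members and 0.90 for all regions. The authors' mark stood in ESC for 16 and in PGC for 53 of the 69, where the shares over all regions were 57.8% and 42.6%. Only regions with an enrichment above 1 in both populations are listed, so ratios are bounded by the higher enrichment, and a region marked in 1 population tends to have its ratio on that side. Within the marks the members were close to all regions, with a median of 1.51 against 1.88 for regions marked in ESC alone and -1.18 against -1.07 for those marked in PGC alone. Relative to the median of all regions the split was 7 higher and 51 lower. With the IP libraries scaled to their reads in listed regions, which moved the median of all regions to -0.19, it was 4 and 51.

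Channels carried most of the lower ratios. Of 34 channel regions, 3 were at least 2-fold higher and 21 lower in ESC, with a median log2 ratio of -1.14. Potassium channels gave 9 lower of 14, calcium channels 3 of 5 and ligand gated channels 4 of 7. Of 19 pump and transporter regions, 3 were higher and 8 lower.

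The lowest ratio among the better covered members was at KCNC2, a voltage gated potassium channel of fast spiking neurons, 307 kb from the start at chr1:37353209-37353418 (galGal4). That region had 9 IP and 5 input reads in ESC, against 16 IP and 3 input reads in PGC. Its log2 ratio was -2.04 (-4.18 to 0.11). KCNK3, a background potassium channel, had in its last intron 4 IP and 2 input reads in ESC and 27 IP and 6 input reads in PGC, for a log2 ratio of -1.95 (-4.34 to 0.44). These enrichments were 1.28 in ESC and 4.94 in PGC.

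SLC4A3, an exchanger of chloride and bicarbonate, had 14 IP and 8 input reads in ESC and 23 IP and 6 input reads in PGC, in its first intron 1.62 kb from the start. Its log2 ratio of -1.73 (-3.43 to -0.03) was the only lower member ratio whose counting interval left out 0, 1 of 69, where the share among all regions was 2.10%. GJC1 had 13 IP and 8 input reads in ESC, against 21 IP and 6 input reads in PGC, 2.24 kb upstream of its start (log2 ratio -1.70, -3.42 to 0.02). The gene ENSGALG00000012021, which has no symbol in the tables, and KCNC1, a relative of KCNC2, had log2 ratios of -1.52 (-3.73 to 0.69) and -1.45 (-3.75 to 0.84). The interval of every other member region at least 2-fold lower reached 0.

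Among the highest ratios was ATP5H, a subunit of the mitochondrial ATP synthase, at 238 bp from the start in an exon (chr18:10900377-10900660). It had 27 IP reads and 1 input read in ESC, against 5 IP and 6 input reads in PGC, for enrichments of 10.7 and 1.06 and a log2 ratio of 3.34 (0.74 to 5.94). ATP1B3, a beta subunit of the sodium and potassium pump, had 66 IP and 7 input reads in ESC and 8 IP and 7 input reads in PGC, in its first intron, 865 bp from the start (chr9:9788674-9789345). The log2 ratio was 2.21 (0.48 to 3.94). SLC30A6, a zinc transporter of the secretory pathway, had 49 IP and 9 input reads in ESC, against 8 IP and 10 input reads in PGC, 364 bp from the start (log2 ratio 1.92, 0.32 to 3.53). These 3 were the member regions higher in ESC with an interval that left out 0, of 69, where the share over all regions was 23.7%, and all 3 lay near a start.

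CDKN1B, WNK1 and ENSGALG00000006838 followed without that support from the counts. CDKN1B had 37 IP reads and 1 input read in ESC, against 6 IP and 2 input reads in PGC, 4.44 kb downstream of the start and past the gene (log2 ratio 2.34, -0.49 to 5.17). WNK1, a kinase that controls cation and chloride cotransporters, had 26 IP and 2 input reads in ESC and 8 IP and 6 input reads in PGC, in its first intron (log2 ratio 2.12, -0.11 to 4.35). ENSGALG00000006838 had a log2 ratio of 2.05 (-0.15 to 4.25).

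The direction followed the distance from the start. Of the 69 member regions 9 lay within 1 kb of a start, where the share over all regions was 39.4%. All 9 were marked in ESC with a ratio above 0, 5 were at least 2-fold higher and 0 lower, and their median log2 ratio was 1.29 against 1.92 for all regions near a start. The 60 regions farther away had 5 higher and 34 lower and a median of -1.12, against -0.65 for all regions farther away. Of those 60, 88.3% were marked in PGC, against 67.3% of all regions farther than 1 kb. The median distance of member regions was 19495 bp, against 2657 bp over all regions. The centre of 35 of the 69 lay inside the closest gene, of 8 inside another gene and of 26 in no gene.

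**Figure D3:**
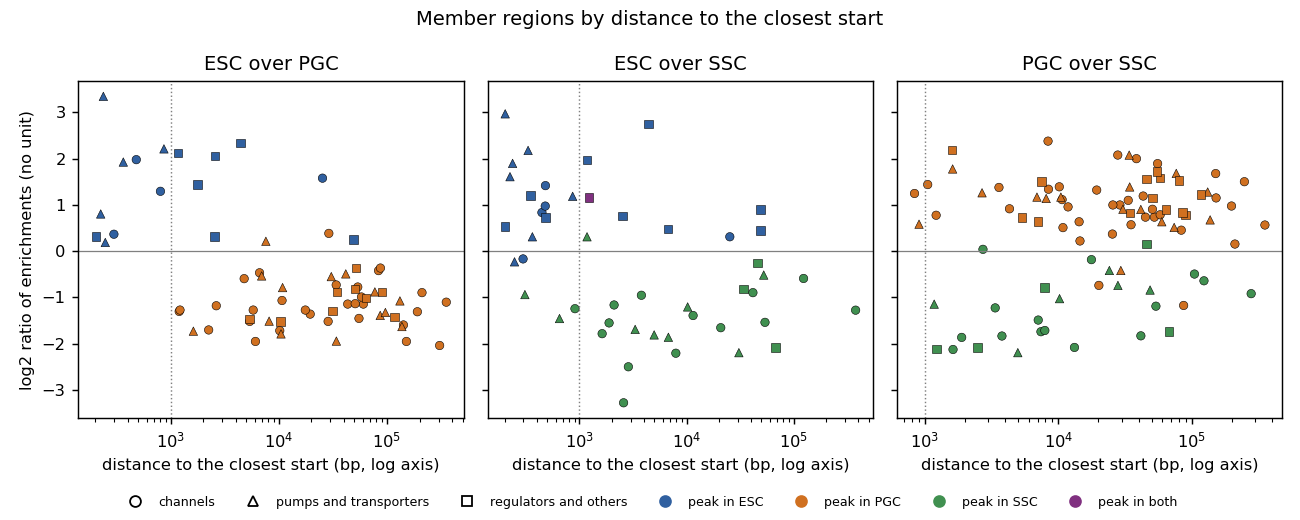
Log2 ratio of enrichments (vertical axis) against distance from the region's centre to the closest start (horizontal log axis, bp) for each member region in the 3 tables, coloured by the population of the peak mark and shaped by role. The dotted line stands at 1 kb. In ESC over PGC the 9 regions left of the line were all marked in ESC with ratios above 0.

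The table of ESC over SSC set the ESC population beside the cells of the embryonic testis labelled as spermatogonial stem cells. It held 48 member regions of 40 genes, of 5840 regions and 4224 genes, and shares the ESC libraries with the first table. Relative to SSC, 10 of the 48 (20.8%) were higher in ESC by 2-fold or more and 18 (37.5%) lower, where all regions had 35.1% higher and 26.3% lower. The median log2 ratio was -0.38 for members and 0.31 for all regions. Marks stood in ESC for 22 and in SSC for 27, with 1 in both, where the shares over all regions were 61.7% and 45.1%. Relative to the median of all regions the split was 7 higher and 22 lower, without the inputs 14 and 16, and with IP libraries scaled to listed regions 5 and 24. The median of all regions stood at 0.74 without the inputs and at -0.41 with that scaling.

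Channels had mostly lower and pumps mostly higher ratios. Of 19 channel regions 1 was at least 2-fold higher in ESC and 11 lower, with a median log2 ratio of -1.24. Of 7 pump regions 4 were higher and 2 lower, with a median of 1.18. The 5 pump regions within 1 kb of a start are all in this table, and role was not separated from distance. The ESC inputs of the regions at ATP6V0B and ATP5G3 held 0 reads. Of the 48 regions 17 lay within 1 kb of a start, where the share over all regions was 47.0%. Their median was 0.83 with 7 higher and 2 lower, while the 31 regions farther away had 3 higher and 16 lower and a median of -1.16. Over all regions the medians were 1.02 near a start and -0.69 farther away, with 50.8% higher and 9.18% lower near and 21.2% higher and 41.4% lower farther away.

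Regions higher in SSC included a proton pump subunit and a potassium channel. ATP6V0C, the proteolipid subunit of the vacuolar proton pump, had 11 IP and 8 input reads in ESC, against 17 IP and 5 input reads in SSC, 6.77 kb upstream of the start (log2 ratio -1.86, -3.68 to -0.03). KCNJ8, an inward rectifier of ATP sensitive potassium channels, had 16 IP and 9 input reads in ESC and 28 IP and 7 input reads in SSC in its last intron, 1.63 kb from the start (log2 ratio -1.78, -3.38 to -0.19). These 2 were the members lower in ESC with an interval that left out 0, of 48, where the share over all regions was 4.83%.

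TTYH3, of a family of anion channels, had 16 IP and 8 input reads in ESC, against 23 IP and 6 input reads in SSC, 1.89 kb upstream of its start (log2 ratio -1.55, -3.23 to 0.13). CLCN6, a chloride and proton exchanger of late endosomes, had a log2 ratio of -1.24 (-2.92 to 0.44) at 909 bp from the start. SLC12A2, the cotransporter of sodium, potassium and chloride, had -0.94 (-3.16 to 1.28) in its first exon, and KCNJ5, a G protein gated inward rectifier, -0.90 (-2.89 to 1.10). The enrichment of the SLC12A2 region was 3.07 in ESC and 5.87 in SSC, high in both.

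Among regions at or above the median of summed IP reads, CDKN1B had the highest ratio, at the region past the gene described above, with 37 IP reads and 1 input read in ESC against 6 IP and 3 input reads in SSC. Its log2 ratio of 2.75 (0.04 to 5.46) was the only one higher in ESC with an interval that left out 0, 1 of 48, where the share over all regions was 12.0%. WNK1 had a region in its first intron with a log2 ratio of 1.97 (-0.25 to 4.18) and another in its 5′ untranslated part, 349 bp from the start, with 1.21 (-1.22 to 3.63). The last was enriched in both libraries, at 17.1 in ESC and 7.42 in SSC. ATP5H had 27 IP reads and 1 input read in ESC and 6 IP and 2 input reads in SSC (log2 ratio 1.90, -0.95 to 4.74).

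SLC4A7, a cotransporter of sodium and bicarbonate, had 58 IP and 5 input reads in ESC, against 7 IP and 3 input reads in SSC, 225 bp from the start (log2 ratio 1.61, -0.51 to 3.72). GABRB2, a subunit of the GABA receptor, had 60 IP and 12 input reads in ESC and 11 IP and 10 input reads in SSC, 482 bp from the start (log2 ratio 1.42, -0.05 to 2.88). It was the ligand gated channel gene with an ESC mark. The 2 most extreme ratios of the table rested on inputs of 0 reads and were picked after their values were seen. ATP6V0B, another proton pump subunit, had 20 IP and 0 input reads in ESC and 4 IP and 2 input reads in SSC. Its log2 ratio was 2.97, or 1.38 with the input of 0 raised to 3 reads, the added read included. GRIA1, a glutamate receptor subunit, had 6 IP and 2 input reads in ESC and 13 IP and 0 input reads in SSC. Its log2 ratio was -3.27, or -1.69 with that input raised in the same way.

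The table of PGC over SSC compared the populations labelled as the earlier and the later germ cells. It held 92 member regions of 73 genes, of 4823 regions and 3611 genes, and shares libraries with both other tables. Relative to SSC, 33 of the 92 (35.9%) were higher in PGC by 2-fold or more and 17 (18.5%) lower, where all regions had 21.2% higher and 37.8% lower. The median log2 ratio was 0.77 for members and -0.42 for all regions. Marks stood in PGC for 66 and in SSC for 26, where the shares over all regions were 47.6% and 52.7%. Relative to the median of all regions the split was 54 higher and 12 lower, and without the inputs, where that median stood at -0.08, it was 36 and 9. With 5 reads added to each count in place of 1 it was 15 higher and 10 lower. Only 2 of the 92 regions lay within 1 kb of a start, where the share over all regions was 11.3%.

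Here transporters stood beside channels. Of 22 pump and transporter regions 9 were higher in PGC and 3 lower, and of 51 channel regions 16 were higher and 11 lower. Potassium channels gave 7 higher and 5 lower of 21, and ligand gated channels 1 higher and 2 lower of 12.

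The intervals of 2 regions higher in PGC left out 0, of 92, where the share over all regions was 1.80%. ENSGALG00000009877, a gene without symbol that carries the terms ion channel activity and potassium ion transport, had 19 IP and 4 input reads in PGC, against 6 IP and 7 input reads in SSC, 1.60 kb upstream of its start (log2 ratio 2.19, 0.16 to 4.22). CLCN1, the chloride channel of skeletal muscle, had 18 IP and 4 input reads in PGC and 8 IP and 9 input reads in SSC, in an exon 27.9 kb from the start (log2 ratio 2.08, 0.15 to 4.0). Both populations' IP reads were few, and the enrichments were 4.94 and 4.69 in PGC against 1.08 and 1.11 in SSC. Without the inputs the log2 ratio of ENSGALG00000009877 was 1.43, and that of CLCN1 fell just under 2-fold, to 0.998.

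SLC4A3, described above in ESC over PGC, had 23 IP and 6 input reads in PGC and 7 of each in SSC (log2 ratio 1.77, -0.09 to 3.64). SLC8A1, the exchanger of sodium and calcium best known from heart muscle, had 20 IP and 7 input reads in PGC and 8 IP and 10 input reads in SSC, 76.6 kb upstream (log2 ratio 1.68, -0.05 to 3.41). WNK1 had another region, in a later intron 45.9 kb from the start, that was marked in PGC, with a log2 ratio of 1.55 (-0.38 to 3.48).

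Of the members lower in PGC, 6 of 92 had an interval that left out 0, where the share over all regions was 9.58%. ATP6V0A1, a large membrane subunit of the vacuolar proton pump, had 9 IP and 11 input reads in PGC and 18 IP and 4 input reads in SSC (log2 ratio -2.19, -4.06 to -0.32). KCNJ8 had 14 IP and 17 input reads in PGC, against 28 IP and 7 input reads in SSC, at the region described in ESC over SSC (log2 ratio -2.12, -3.62 to -0.62). Its enrichment was 1.30 in ESC, 1.03 in PGC and 4.48 in SSC, so that SSC alone stood high.

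CDKN1B held the deepest member region of the table, over its first intron at chr1:72274094-72275879, with 29 IP and 25 input reads in PGC and 124 IP and 24 input reads in SSC (log2 ratio -2.12, -3.10 to -1.14). ANXA6, a calcium dependent membrane binding protein, had 20 IP and 16 input reads in PGC, against 25 IP and 4 input reads in SSC (log2 ratio -2.08, -3.74 to -0.42). Without the inputs the ANXA6 log2 ratio was -0.39. TTYH3 and KCNJ5 had -1.86 (-3.41 to -0.32) and -1.83 (-3.59 to -0.06). CACNA1C, the pore of the L-type calcium channel, had 8 IP and 7 input reads in PGC and 15 IP and 3 input reads in SSC, 3.79 kb upstream (log2 ratio -1.83, -3.93 to 0.26). Without the inputs TTYH3 and CACNA1C fell under 2-fold, to -0.58 and -0.91. The KCNJ5 region, with 10 IP reads in PGC and 17 in SSC, fell under 2-fold as well. CDKN1B, KCNJ8 and ATP6V0A1 stayed at least 2-fold lower without the inputs, at -2.14, -1.03 and -1.01.

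**Figure D4:**
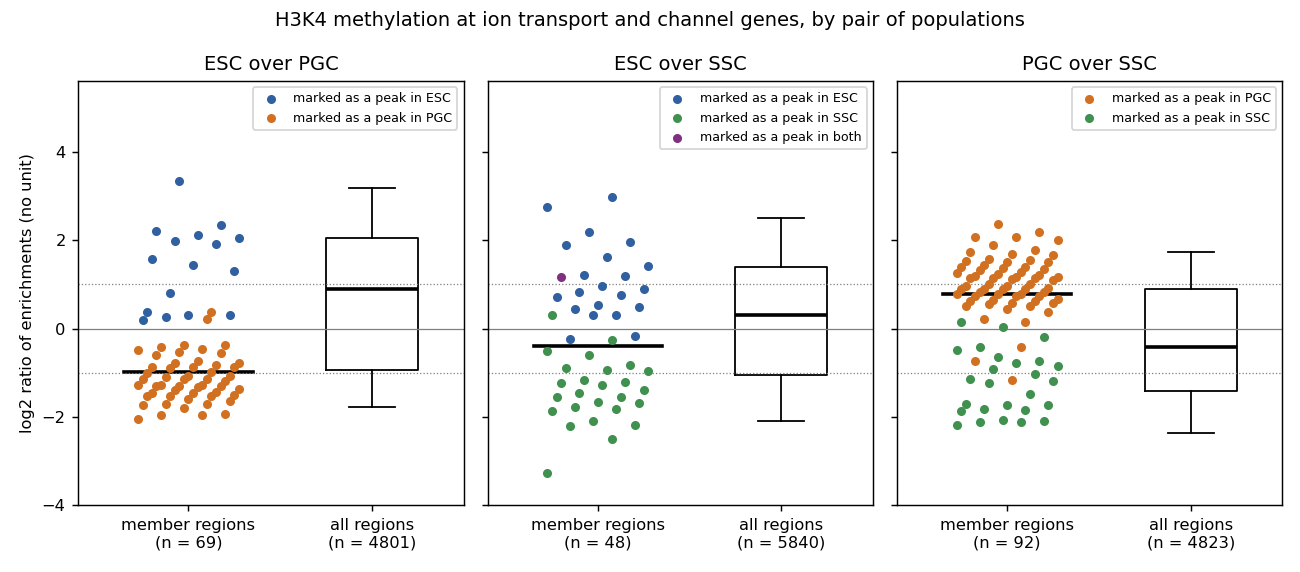
Log2 ratio of enrichments (vertical axis) of each member region (points, coloured by the population of the peak mark, bar at the median) beside all regions of the table (box from the lower to the upper quartile, line at the median, whiskers from the 5th to the 95th percentile). Dotted lines stand at 2-fold. The medians of members and all regions were -0.99 and 0.90 in ESC over PGC, -0.38 and 0.31 in ESC over SSC, and 0.77 and -0.42 in PGC over SSC.

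Regions listed in 2 tables have reads in all 6 libraries. Among member regions 13 such regions were marked in ESC alone, 27 in PGC alone and 12 in SSC alone. Those marked in ESC had median enrichments of 4.86 in ESC, 1.85 in PGC and 2.47 in SSC, and 11 of 13 were highest in ESC. Those marked in PGC had 1.38, 3.17 and 1.59, with 25 of 27 highest in PGC, and those marked in SSC had 1.32, 1.39 and 3.97, with 10 of 12 highest in SSC. The marks were chosen by the authors from these reads, so the profiles are a description. In ESC over PGC, 16 of 16 member regions marked in ESC had an enrichment there whose own counting interval lay above 1, against 45 of 53 marked in PGC, and the median enrichment of the marked regions was 4.98 in ESC and 3.21 in PGC. Over all regions the shares were close to these, at 98.0% in ESC and 81.5% in PGC, where the members had 100% and 84.9%. The median enrichments over all regions were 6.13 and 2.96. In PGC over SSC the member shares were 78.8% of 66 marked in PGC and 84.6% of 26 marked in SSC, against 81.1% and 90.4%. In ESC over SSC they were 95.5% in ESC and 92.6% in SSC, against 98.2% and 91.5%.

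**Figure D5:**
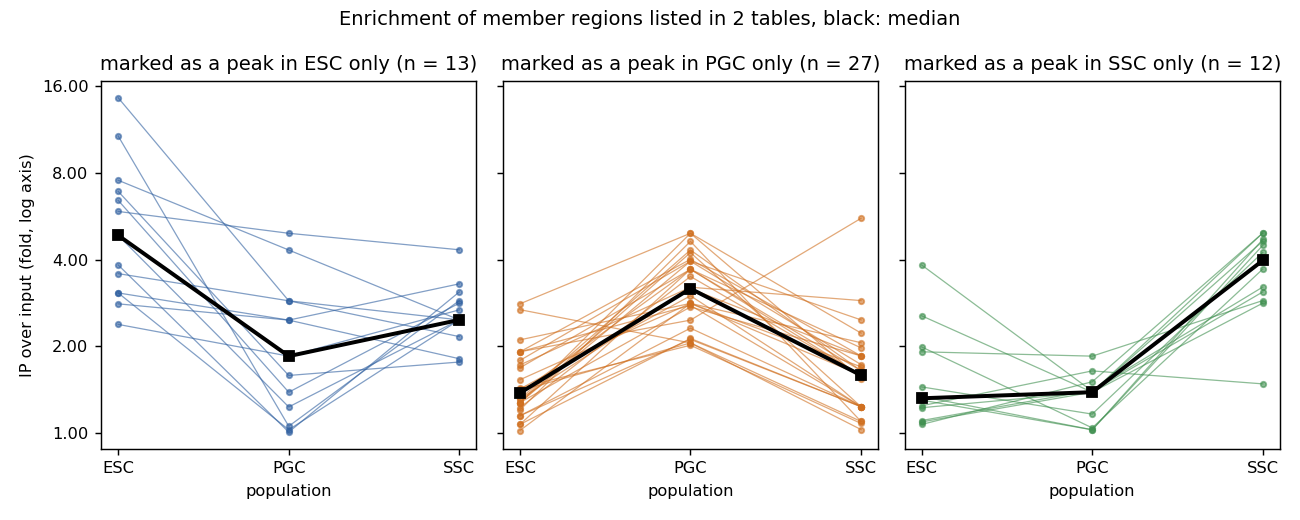
Enrichment of IP over input (vertical log axis, fold) in ESC, PGC and SSC (horizontal axis) for member regions listed in 2 tables, 1 line per region, in panels by the population of the peak mark, with the median in black. The median reached 4.86 in ESC for ESC-marked regions, 3.17 in PGC for PGC-marked regions and 3.97 in SSC for SSC-marked regions.

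The 10 genes with regions in all 3 tables were CDKN1B, SLC4A7, WNK1, ATP5G3, CAMK2G, KCNC2, KCNJ5, FGF13, SLC24A3 and CACNA2D1. Several carried marks of different populations at different places. Every member region is marked in a population, and no population is in all 3 tables. Different marks at such a gene therefore follow from how the tables are built. SLC4A7 was marked in ESC at 225 bp from the start, with enrichments of 7.54 in ESC, 4.32 in PGC and 2.47 in SSC. In the same intron it was marked in PGC at 6.93 kb, with 1.92, 2.78 and 1.24, and in SSC at 24.2 kb. KCNC2 was marked in PGC at 307 and 354 kb and in SSC at 124 kb, in all cases outside the gene.

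KCNJ5 was marked in SSC at 11.5 and 41.6 kb and in PGC at 83.6 kb, and the 41.6 kb region had enrichments of 1.99 in ESC, 1.04 in PGC and 3.71 in SSC. FGF13, an intracellular factor that binds sodium channels, was marked in SSC at 67.7 kb with enrichments of 1.10, 1.39 and 4.64, and in PGC at 64.1 and 80.5 kb. SLC24A3, a potassium dependent exchanger of sodium and calcium, was marked in PGC and in SSC at separate places within its second intron, and its ratios stayed under 2-fold in each table. CACNA2D1, an auxiliary subunit of calcium channels, was marked in SSC in its first intron, with 7 IP and 3 input reads in ESC and 13 IP reads and 1 input read in SSC (log2 ratio -2.50, -5.25 to 0.25), and in PGC at 58.1 kb upstream.

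The most regions per gene were 4, at ATP5G3, CACNA1H, CAMK2G, CDKN1B and KCNJ2. ATP5G3, an ATP synthase subunit, was marked in ESC at 332 bp from its start with 16 IP and 0 input reads in ESC, against 6 IP and 2 input reads in SSC. The log2 ratio was 2.18, or 0.59 with the 0 raised to 3 reads, the added read included. Its other 3 regions were marked in PGC between 96.6 and 137 kb upstream, with log2 ratios of ESC over PGC of -1.07, -1.32 and -1.63. The region at the start is listed in ESC over SSC alone, so its ratio and those 3 belong to different comparisons. The distant regions are assigned to the gene by closeness alone.

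CACNA1H, the pore of a T-type calcium channel, was marked in PGC at all 4 regions, with enrichments in PGC between 2.06 and 3.70. KCNJ2, an inward rectifier of muscle and neurons, was marked in PGC at all 4 regions too, between 152 and 211 kb from the start and outside the gene, with enrichments in PGC between 2.78 and 4.94. CAMK2G, a calcium dependent kinase, was marked in ESC at neighbouring regions 48.9 and 49.2 kb upstream, and in PGC at neighbouring regions 50.7 and 51.9 kb downstream. The region at 50.7 kb had enrichments of 2.81 in ESC, 4.94 in PGC and 2.23 in SSC. At CDKN1B 3 regions were marked in ESC alone, and the region over the first intron, which overlaps one of them, had 143 IP and 7 input reads in ESC and an enrichment of 13.8 in ESC, 1.42 in PGC and 6.18 in SSC.

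Other genes of the same families lay outside the annotation terms. By symbol, 105 listed genes belonged to the channel, pump and transporter families, of which 79 were members and 26 were not. The 26 are given for comparison, with no test of the difference. In ESC over PGC they had 24 regions of 18 genes with 11 higher and 6 lower, 10 of them near a start, and a median log2 ratio of 0.04, against -0.99 for members. In ESC over SSC they had 20 regions with 9 higher and 2 lower and a median of 0.92, with 12 near a start. In PGC over SSC they had 18 regions with 3 higher and 5 lower and a median of -0.29.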

How the data were processed

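H3K4 methylation was measured by ChIP-seq in 3 chicken populations with 1 IP and 1 input library each. Per the submitters' processing notes, CASAVA 1.8, FastQC, BWA and MACS2 were used with the build galGal4; peak settings and the counting step are not given in the sources used here, nor is the base from which coordinates count. The authors deposited 3 tables, 1 per pair of populations, which per the file headers hold read counts, RPM, the ratio of IP to input RPM (fold enrichment) and the log2 ratio of both enrichments. The deposited RPM equals the count plus 1 over the library total in megareads, and 100% of counts were recovered within 0.05 reads. Ratios were recomputed from RPM (Python 3.11.15, pandas 2.3.3, numpy 2.4.6) and differed from the deposited log2 by at most 6.94e-06. Repeats of a region, 90, 152 and 55 in the 3 tables, were collapsed. Intervals are 95% and come from the delta method on 4 counts, tested on simulated data. The simulated inputs were drawn around the median input of all regions, with no selection by peak mark. Intervals at regions with lower expected inputs were not tested.

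Genes are the closest start in the authors' tables. Member genes, roles and lists were chosen with earlier results of these data known. Named were, per table, the 6 highest and 6 lowest member ratios among regions at or above the median of summed IP reads, genes in all 3 tables, near regions at 2-fold or more with an interval without 0, and the 5 genes with most regions. One region that the rule names is not reported here. Alternatives varied the added reads, a minimum of 20 IP reads, centring, inputs, scaling, membership and distance. No sequences were used here. Of 92 member symbols, 89 were found in a RefSeq gene table.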

Additional observations from a re-analysis of the deposited data

How the results depend on the processing

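Each of the 9 main values, the counts of member regions at least 2-fold higher and lower and the median log2 ratio in 3 tables, was computed under 10 alternatives. Of these 90 values 71 stayed within 1.5 times the count, or within the 95% order-statistic interval of the median over member regions with the same sign, 17 moved and 2 changed sign. Restricted to regions within 1 kb of a start, the median of ESC over PGC turned to 1.29, with 5 of 9 regions higher and 0 lower. That of ESC over SSC turned to 0.83, with 2 of 17 lower. PGC over SSC had 1 of 2 higher and 0 lower. Relative to all regions the median was -1.89 in ESC over PGC and 1.19 in PGC over SSC, with 54 higher. With IP libraries scaled to listed regions ESC over PGC had 4 higher and a median of -2.08, and ESC over SSC 5 higher and a median of -1.11. Without the generic term 5 of 50 regions were higher in ESC over PGC and 4 of 29 in ESC over SSC. Taken by symbol, 17 of 74 were higher in ESC over PGC. Counts were compared without regard to the number of regions, which differs where membership, distance or the minimum of reads was varied. In PGC over SSC, 5 added reads gave 15 higher and 10 lower, and leaving out the inputs 9 lower. For 36 named ratios under 6 alternatives, 215 of 216 values kept their sign and lay within the ratio's counting interval. Some of these ratios are of the same region in different tables and share libraries. The minimum of IP reads and the raising of inputs of 0 left every named value unchanged, so these alternatives did not test them. The counting intervals are also wide. With 5 reads added, ATP5H in ESC over PGC went from 3.34 to 1.87, inside its interval of 0.74 to 5.94. The count therefore says little about how stable single ratios are. ANXA6 moved to -0.39 in PGC over SSC without inputs. The cause was not tested. No paired analysis was possible because each population had 1 library of each kind and the labels give no replicate numbers, and no library could be left out. Depth limits single regions, since at the median standard error of 1.03 or more the counting interval of a 2-fold ratio includes 0.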
